A study of Mus musculus with 8 samples.

Results

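The respiratory chain and ATP synthase genes of mouse liver were taken as every gene row whose symbol starts as the nuclear subunits of complexes I to V do (Nduf with a subfamily letter and a number, Sdha to Sdhd, Uqcr, Cox4 to Cox8, and Atp5). The rule found 85 of 22059 genes, of which 37 were named for complex I, 4 for complex II, 8 for complex III, 19 for complex IV and 17 for complex V. The livers came from FVB mice (FVB/NJ in the study's methods), an inbred strain with no engineered allele and no treatment in any group, and were collected at embryonic day 18 (E18), postnatal day 14 (P14), postnatal day 28 (P28) and 3 months of age (adult). Each stage had 2 samples of whole liver, from which poly(A)-selected RNA was sequenced, so all cell types of the organ were read together. The study calls the samples of a stage biological duplicates, but the labels do not say whether they came from separate animals or pools, and the p-values measure only the spread between these samples.

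The respiratory chain of the inner mitochondrial membrane passes electrons from NADH (through complex I, NADH dehydrogenase) and from succinate (through complex II, succinate dehydrogenase) to ubiquinone, then through complex III and cytochrome c to complex IV, cytochrome c oxidase, which reduces oxygen. Complexes I, III and IV pump protons, and complex V, ATP synthase, lets them back to make ATP. Most subunits are encoded in the nucleus, and some of those of complexes IV and V exist as several isoforms, encoded by separate genes and known for their use in muscle, testis, lung or other tissues. The mitochondrially encoded subunits were sought by symbol and 0 were found among the gene rows, so they were not analysed here. Adult hepatocytes rely on this machinery for gluconeogenesis, urea synthesis and fatty acid oxidation, and the fetal liver is also the organ in which blood cells form. A few genes that the rule matched have another known role and were kept because the rule named them. These are Cox4nb (now Emc8, a part of the endoplasmic reticulum membrane complex), Atp5s, Atp5sl, Cox7a2l (a factor of supercomplexes) and Ndufa4 with its relative Ndufa4l2, of which Ndufa4 is now placed in complex IV.

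Between 68154675 and 106055723 reads per sample lay on genes, and the members took 0.937% to 1.14% of them. Hepatocyte markers were present at every stage, and their summed level lay between 22487 and 23074 at E18, between 121027 and 121057 at P14, between 84513 and 90168 at P28 and between 52309 and 63388 in adult (TMM-scaled RPKM, that is, the reads of a gene per kilobase of transcript and 1e6 reads of the library size after edgeR's TMM scaling). At E18 other cell types were also read: the 9 erythroid markers summed to between 6399 and 8347 at E18 and to at most 58.2 in adult, and all 9 were lower in adult. The 8 neutrophil markers summed to between 1358 and 1709 at E18 and to at most 7.1 in adult, where Ngp and Camp were at 0 reads. Pancreas markers summed to between 187 and 424 at E18 and between 94.7 and 107 in adult, with Cpa1, Pnliprp1 and Pnlip at 0 reads in both adult samples. The part of these cells in the changes given here was not tested, and in bulk tissue fewer cells of a type and less RNA per cell cannot be told apart.

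The level of the chain genes between E18 and later stages depended on the scaling. TMM gave the E18 libraries factors of 1.598 and 1.539 and the postnatal libraries factors of 0.847 to 0.887, and with library size alone the median log2 fold change of all genes tested moved down by 0.87 from E18 to P14 and by 0.85 from E18 to adult. The later steps moved by at most 0.02, and upper-quartile scaling moved that median down by 0.12 and 0.26. Relative to the median of all genes tested, the members' median from E18 to P14 lay 1.03 higher on the log2 scale with TMM and with library size alone, and from E18 to adult it lay 1.10 higher with both. A change of scaling shifts all genes by nearly the same amount, so this likeness was fixed in advance and is no check of the result. Every log2 fold change below is on the TMM scale unless stated otherwise.

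The chain genes were higher after birth as a group, and nearly all of that change lay before P14. With edgeR's quasi-likelihood test at an adjusted p below 0.1, 73 of the 83 members that passed the filter on low counts were higher at P14 than at E18 and 2 were lower, against 38.2% of all 17081 genes tested that were higher and 39.3% that were lower. The members' median log2 fold change was 0.995, with the quartiles at 0.695 and 1.28, whereas that of all genes was -0.03 with the quartiles at -0.94 and 0.85. With library size alone the median of the members was 0.13, and 33 members were higher (18.6% of all genes) and 15 lower (66.8% of all genes). The 33 members that were higher with library size alone were higher under all 4 scalings (TMM, library size, median ratio and upper quartile), and Cox6b2 and Ndufa4l2 were lower under all 4. Cox8b is among the members counted as higher from E18, here and below. With 1 and 2 reads at E18 it passed the filter only through the later stages, so its calls are not read as a result.

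From E18 to adult, 70 members were higher and 3 were lower, against 39.5% and 43.8% of all genes, with a median of 0.99 for the members and -0.11 for all genes. With library size alone 34 were higher and 14 lower, against 22.1% and 64.9% of all genes, and those 34 were higher under all 4 scalings. Past 3-fold as well, 12 members changed from E18 to adult (40.5% of all genes did) and 7 from E18 to P14 (29.2% of all genes). Of those 12, 11 were higher in adult and Cox6b2 was lower. By the mean of each stage, 40 of the 83 members were highest in adult, 38 at P14, 2 at P28 and 3 at E18. Of all genes tested, 25.5% were highest in adult, 18.0% at P14, 13.6% at P28 and 42.8% at E18. Complex V was mostly highest at P14 (12 of 17 members) and complex I in adult (22 of 37), a difference that was not tested. These are ranks of means of 2 samples, and most members were not called at the steps after P14.

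From P14 to P28, 18 members were lower and 2 were higher (28.6% and 25.2% of all genes), with a median of -0.095. The 1 member past 3-fold (9.59% of all genes) was Cox6a2, the heart and muscle form of subunit VIa, which had 8 and 42 reads at P14 and 8 and 1 at P28. Without the P14 library of 42 reads its log2 fold change was -0.56 in place of -2.21 and its adjusted p 0.70 in place of 0.077. It also lost the call without either E18 library (adjusted p = 0.11) and without the P28 library of 1 read (adjusted p = 0.30). The P14 library of 42 reads also stood apart in muscle markers: the summed striated muscle markers were at 1.18 and 13.1 TMM-scaled RPKM in the P14 libraries, and all 10 of them had more reads there than in the other P14 library, such as myoglobin (Mb, 77 against 2 reads) and Acta1 (260 against 1). Among the 18 lower members were Atp5b, Atp5d, Atp5g3, Sdhd and Uqcr10. From P28 to adult, 3 members were higher (Atp5sl, Ndufa4 and Ndufb3) and 1 was lower (Cox6b2), against 7.94% and 13.2% of all genes, and Cox6b2 alone passed 3-fold (3% of all genes). None of those 3 higher calls held without either adult library or without the first P28 library, where 0 members were higher.

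**Figure D1:**
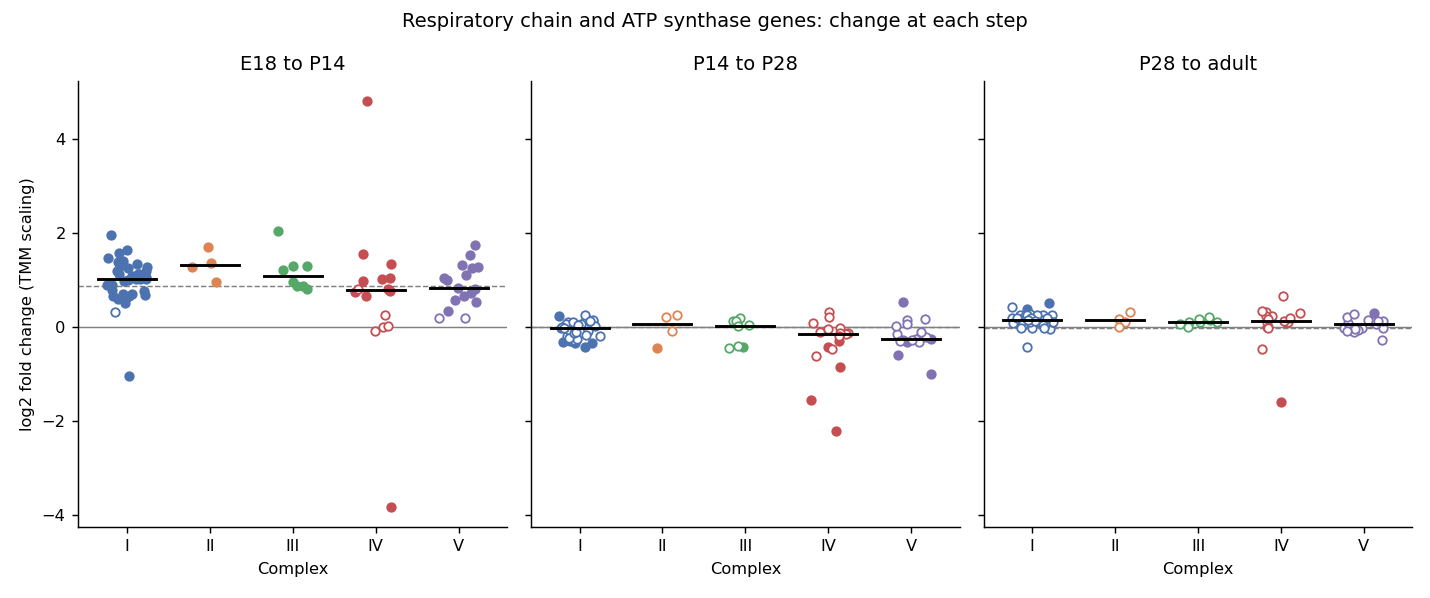
Log2 fold change of each tested member (TMM scaling) by complex, in 3 panels for E18 to P14, P14 to P28 and P28 to adult. Filled points passed an adjusted p below 0.1, black bars are medians, the solid line is 0 on the TMM scale and the dashed line is where 0 lies with library size alone. Most members sit near 1 in the first panel and near 0 in the others, and Cox8b (4.81) and Cox6b2 (-3.82) stand apart in complex IV at the first step.

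Some of the chain genes had far fewer reads than their partners in the same complex, and the sequences of their transcripts had near-identical copies elsewhere in the genome. Processed pseudogenes, reverse-transcribed copies of an mRNA inserted in the genome, are common for short and highly expressed genes. For 35 of the 85 members, a stretch of at least 100 bases of the transcript matched a transcript of a gene at another locus with at least 90% identity, and for 21 with at least 95%. The study tallies uniquely mapped reads for its libraries, but whether these alone were counted per gene is not given in the sources used here, so the levels of these members are uncertain. Coding stretches of 2 of them are shown beside a copy because they let the likeness be seen directly. Ndufs5, an accessory subunit of complex I, lies in GRCm38 on chromosome 4 (chr4:123712710-123718202, minus strand), and its pseudogene BC002163 on chromosome 16 (chr16:42955631-42955949, plus strand). Coding bases 61 to 180 of 318 are printed 5′ to 3′ from GENCODE M21, with capitals where they differ.
Ndufs5: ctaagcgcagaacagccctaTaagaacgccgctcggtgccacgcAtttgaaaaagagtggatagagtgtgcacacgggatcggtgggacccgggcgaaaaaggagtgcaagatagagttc
BC002163: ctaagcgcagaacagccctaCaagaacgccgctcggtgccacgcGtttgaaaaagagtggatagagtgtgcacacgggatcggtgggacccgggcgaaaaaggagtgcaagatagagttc
These 2 bases were the only differences over all 318 coding bases. Atp5l, subunit g of ATP synthase, lies on chromosome 9 (chr9:44912557-44920742, minus strand) and its pseudogene Gm10221 on chromosome 5 (chr5:24581554-24581862, minus strand), and coding bases 1 to 120 of 309 are printed.
Atp5l: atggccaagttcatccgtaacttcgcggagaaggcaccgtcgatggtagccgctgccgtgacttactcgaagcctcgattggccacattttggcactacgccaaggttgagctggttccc
Gm10221: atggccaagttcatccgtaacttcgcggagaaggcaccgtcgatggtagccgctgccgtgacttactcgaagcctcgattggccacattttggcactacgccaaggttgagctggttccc
Over the 309 coding bases there were 0 differences, and in all 17 genes elsewhere matched the Atp5l transcript over at least 100 bases at 90% identity or more.

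These 2 genes had few reads in every library. Ndufs5 had 41 and 44 reads at E18, then 59 and 59 at P14, then 60 and 49 at P28 and finally 57 and 49 in adult. Atp5l had 75 and 90 reads at E18, then 111 and 90 at P14, then 65 and 76 at P28 and finally 61 and 47 in adult. By contrast Atp5g3, which is in the same Fo part of the enzyme as Atp5l, had 39279 to 71624. Leaving out tissue isoforms and the members of another known role, the 40 subunit genes with no copy had a median level of 167 TMM-scaled RPKM over the 8 libraries, the 12 with a copy of 90% to under 95% identity had 73.5, and the 20 with a closer copy had 6.71. Under 20 TMM-scaled RPKM lay 14 of those 20, 2 of the 12 and 1 of the 40 (Atp5k, 5.65). Over these 72 genes Spearman's rho between the level and the share of the transcript in copies was -0.60, as a description only, since the genes differ in length and other properties. The median log2 fold change from E18 to P14 was 1.07 for the 48 tested members without a copy and 0.80 for the 35 with one. From E18 to adult it was 1.04 and 0.93, with 42 and 28 members higher (39.5% of all genes were higher).

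**Figure D2:**
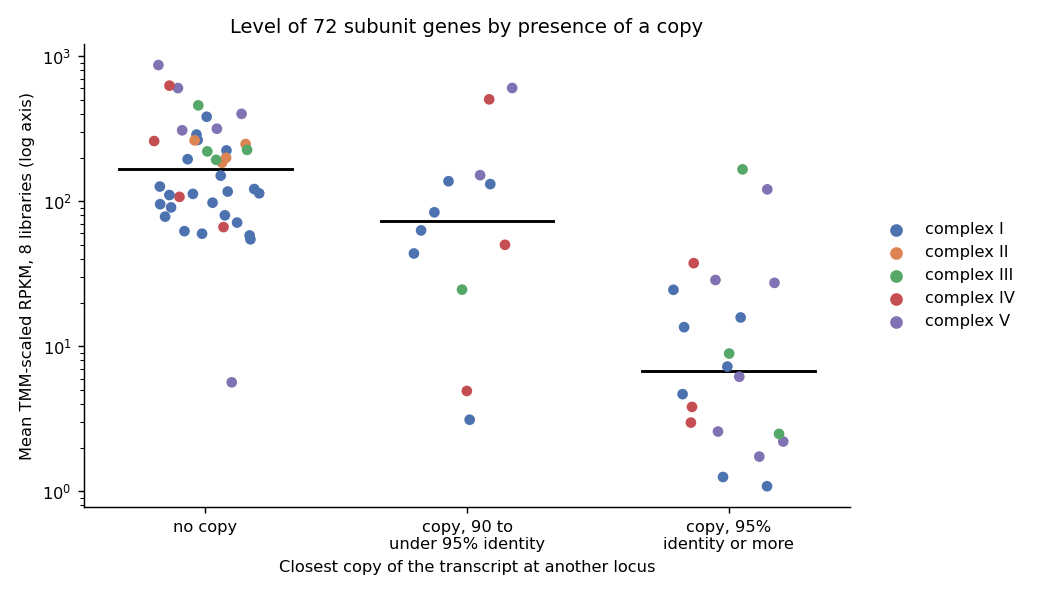
Mean TMM-scaled RPKM over the 8 libraries (log axis) of 72 subunit genes, by the identity of the closest copy of their transcript at another locus. Points are genes coloured by complex and bars are medians, which are 167 with no copy, 73.5 with a copy of 90% to under 95% identity and 6.71 with a closer one.

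Complex I takes electrons from NADH and is the largest of the chain. From E18 to P14, 35 of its 37 members were higher (38.2% of all genes), with a median of 1.03. Ndufa4l2 was lower (39.3% of all genes) and Ndufb4 was not called. The same counts held from E18 to adult (39.5% and 43.8% of all genes), with a median of 1.09. Under all 4 scalings 18 were higher from E18 to P14. With library size alone these 18 were higher and 5 were lower (Ndufa4l2, Ndufb11, Ndufb7, Ndufb8 and Ndufs1), against 18.6% and 66.8% of all genes. From E18 to adult 19 were higher and 2 lower with library size alone (22.1% and 64.9% of all genes). The 7 core subunits, which carry the flavin and iron-sulfur clusters and are conserved in bacteria, were all higher from E18 to P14 (median 0.77) and the 28 accessory subunits had a median of 1.05, with 27 higher.

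Ndufs1, the largest core subunit, was at 39.7 and 45.6 TMM-scaled RPKM at E18, then 71.2 and 64.6 at P14, then 63.2 and 66.2 at P28 and finally 73.5 and 73.8 in adult. Its log2 fold change to P14 was 0.67 ± 0.10 (SE) with TMM but it was called lower with library size alone (-0.195). Ndufv1, which binds NADH, was at 66.3 and 72.4 at E18, then 154 and 141 at P14, then 135 and 141 at P28 and finally 153 and 148 in adult. The E18 samples lay below all others, with a log2 fold change to adult of 1.12 ± 0.10 that was called under all 4 scalings.

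The complex I members past 3-fold from E18 to adult were Ndufs6, Ndufa1, Ndufa6, Ndufb9 and Ndufa4. Ndufs6, an accessory subunit that binds zinc, had the largest log2 fold change (2.08 ± 0.20, adjusted p = 9.1e-06), from 160 and 173 reads at E18 to 371 and 299 in adult, and its transcript has a pseudogene. Ndufa6, an accessory subunit of the LYR protein family, had no copy and was at 108 and 122 TMM-scaled RPKM at E18, then 294 and 293 at P14, then 337 and 357 at P28 and finally 426 and 371 in adult. No stage overlapped the one before it, the step from P28 to adult was not called, and it had a log2 fold change to adult of 1.79 ± 0.11 (adjusted p = 4.1e-07). Ndufa1 was at 44.6 and 53.6 at E18 and 187 and 179 in adult, and the log2 fold change was 1.90 ± 0.10. Ndufb9 was the most abundant member of complex I by its mean over stages and was at 150 and 192 at E18 and 560 and 474 in adult.

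Ndufb7 had the lowest change of the called complex I subunits, at 89.4 and 120 at E18 and 150 and 124 in adult (log2 fold change 0.39 ± 0.15, adjusted p = 0.036), and with library size alone it was called lower (-0.46). Ndufb10 was at 92.1 and 115 at E18, then 319 and 296 at P14, and 277 and 236 in adult, so that its highest stage was P14, and it was lower at P28 (-0.42 ± 0.13, adjusted p = 0.026). Ndufb3 was at 11.9 and 15.8 at E18, 23.3 and 27.7 at P28 and 37.3 and 35.6 in adult, the largest rise of complex I from P28 (0.52 ± 0.15, adjusted p = 0.052).

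Complex II is the member of the chain that also works in the tricarboxylic acid cycle and is encoded by nuclear genes only. All 4 subunits were higher at P14 and in adult (38.2% and 39.5% of all genes), with medians of 1.32 and 1.53. Sdha, Sdhb and Sdhc were higher under all 4 scalings, against 18.6% and 22.1% of all genes with library size alone. Sdhb, the iron-sulfur subunit, rose most. It was at 69.4 and 84.0 TMM-scaled RPKM at E18, then 255 and 246 at P14, then 284 and 311 at P28 and finally 380 and 358 in adult. No stage overlapped another, but the steps from P14 to P28 and from P28 to adult were not called (edgeR adjusted p = 0.11 for both). The log2 fold change from E18 to adult was 2.27 ± 0.12 (adjusted p = 1.7e-07), or 4.81-fold.

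Sdha, the flavoprotein that oxidizes succinate, was at 73.2 and 87.1 at E18, then 213 and 199 at P14, then 232 and 248 at P28 and finally 275 and 267 in adult, with a log2 fold change of 1.76 ± 0.12. Sdhd, a membrane anchor, took another course and was at 169 and 194 at E18, then 358 and 351 at P14, then 242 and 276 at P28 and finally 266 and 250 in adult. It was lower at P28 than at P14 (-0.45 ± 0.11, adjusted p = 0.010), and its change from E18 to adult was 0.51 ± 0.11 with TMM but called lower with library size alone (-0.34). Per length the subunits of this complex, which stand in equal number in the protein, were at 369 ± 15.9 for Sdhb and 223 ± 5.99 for Sdhc in adult (TMM-scaled RPKM, SD, n = 2), and Sdhd was the most abundant of the 4 at E18.

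Complex III hands electrons from ubiquinol to cytochrome c. All 8 members were higher from E18 to P14 (median 1.08) and from E18 to adult (median 1.10), against 38.2% and 39.5% of all genes. Of these, Uqcrq, Uqcrfs1 and Uqcr10 to P14 and Uqcrq, Uqcrfs1 and Uqcrc2 to adult were higher under all 4 scalings. With library size alone no other member was higher and 0 were lower, where 18.6% and 22.1% of all genes were higher. Uqcrq, a small subunit that binds ubiquinone, was at 122 and 137 TMM-scaled RPKM at E18, then 533 and 538 at P14, then 548 and 551 at P28 and finally 680 and 561 in adult. The whole of its rise past 3-fold lay before P14 (2.05 ± 0.12, adjusted p = 4.8e-07), and the later steps were not called. Uqcrfs1, the Rieske iron-sulfur protein, was at 96.4 and 114 at E18 and 287 and 277 in adult (1.43 ± 0.11). Uqcrc1, a core protein, was at 123 and 142 at E18 and 268 and 261 in adult (1.00 ± 0.11), and with library size alone its log2 fold change was 0.15 and not called. Uqcrh and Uqcrb had the lowest changes from E18 to adult, 0.71 ± 0.18 and 0.76 ± 0.22, and both have pseudogenes. With library size alone these were -0.14 and -0.08 and not called.

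**Figure D3:**
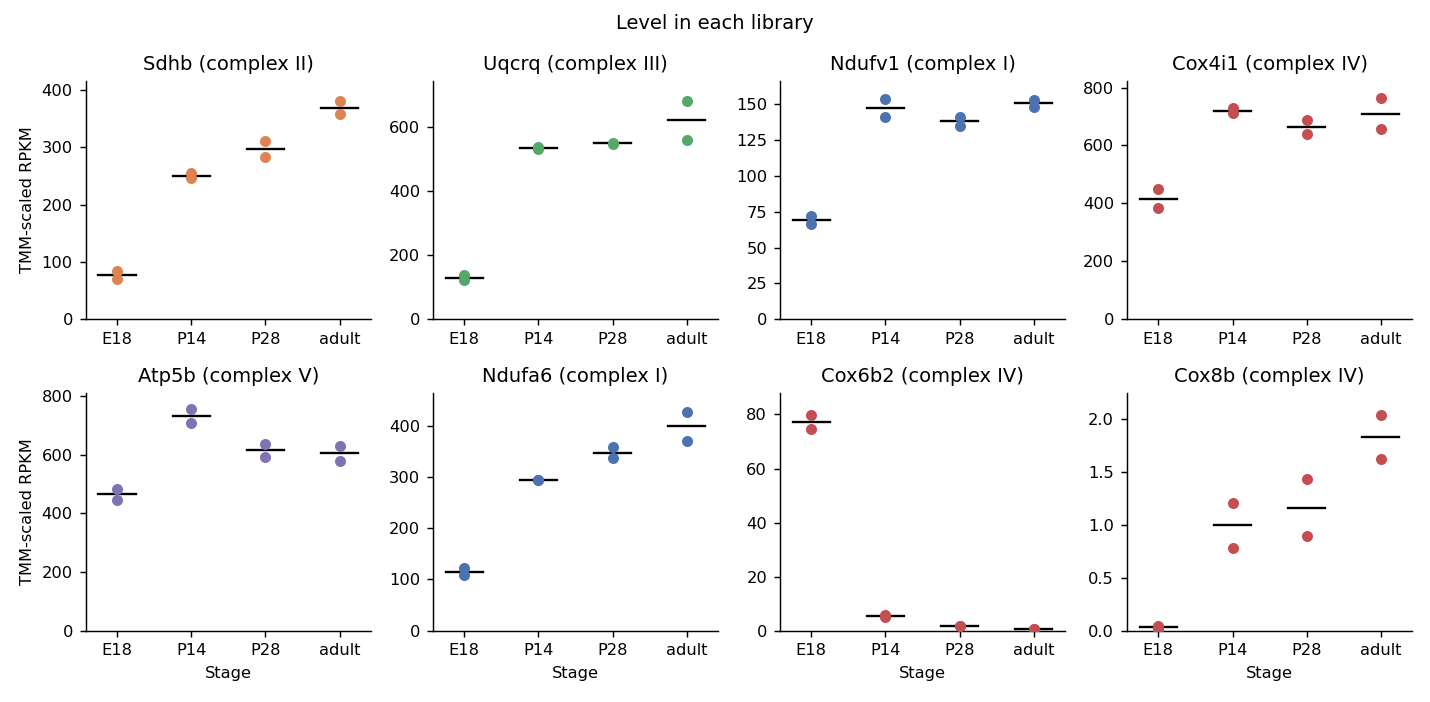
TMM-scaled RPKM in each library (points) with the mean of each stage (bars) for 8 members, on linear axes that start at 0. Sdhb, Uqcrq, Ndufv1 and Ndufa6 had E18 samples below all later ones, Cox6b2 had 79.9 and 74.6 at E18 against 0.626 and 0.598 in adult, and Cox8b had 1 and 2 reads at E18.

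Complex IV reduces oxygen and is where most tissue isoforms of the chain are found. Of its 17 tested members 11 were higher from E18 to adult (39.5% of all genes) and 4 were not called, with a median of 0.76. Cox6b2 and Cox4i2 were lower (43.8% of all genes). From E18 to P14 the counts were 11 higher and 1 lower (38.2% and 39.3% of all genes), with a median of 0.79. With library size alone 4 were higher and 6 lower from E18 to adult, against 22.1% and 64.9% of all genes. From E18 to P14 the counts with library size alone were 3 higher and 5 lower, against 18.6% and 66.8% of all genes. Cox7b2 and Cox8c, isoforms known from testis, had at most 1 and 3 reads in any library and were not tested. Cox4i1, the common form of the largest nuclear subunit, was the most abundant member and was at 383 and 450 TMM-scaled RPKM at E18, then 711 and 728 at P14, then 638 and 686 at P28 and finally 764 and 656 in adult. Its log2 fold change to adult was 0.77 ± 0.12 (adjusted p = 0.00031) but -0.08 and not called with library size alone. Cox5a was at 20.6 and 24.4 at E18, then 67.8 and 64.0 at P14, then 53.6 and 54.2 at P28 and finally 59.3 and 57.0 in adult, and rose under all 4 scalings (1.37 ± 0.10 to adult). Cox6c, at 14.0 and 18.7 at E18 and 53.6 and 48.6 in adult, also rose under all 4 and passed 3-fold (1.64 ± 0.14). Cox5b and Cox7c, both with copies elsewhere, had 163 to 347 and 104 to 215 reads, and Cox7c was not called at any step.

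Complex V makes ATP with a soluble F1 head and a membrane Fo part. From E18 to P14, 15 of its 17 members were higher and 0 were lower at an adjusted p below 0.1 (38.2% and 39.3% of all genes), with a median of 0.84. From E18 to adult 12 were higher and 0 lower (39.5% and 43.8% of all genes). With library size alone, 5 were higher from E18 to adult and 5 were called lower (Atp5b, Atp5g2, Atp5h, Atp5o and Atp5s), against 22.1% and 64.9% of all genes. All 5 genes of the F1 head were higher to adult (median 0.97), as were 6 of 10 genes of Fo and the stalks (median 0.65). Atp5b, the catalytic beta subunit, had the lowest change of the F1 genes. It was at 447 and 483 TMM-scaled RPKM at E18, then 757 and 706 at P14, then 593 and 638 at P28 and finally 630 and 579 in adult, with a log2 fold change to adult of 0.38 ± 0.11 (adjusted p = 0.012) that became -0.47 with library size alone. Its partner Atp5a1 was at 350 and 381 at E18 and 655 and 655 in adult, and the log2 fold change was 0.84 ± 0.11, with a value near 0 (-0.01) and no call with library size alone. Atp5j, a coupling factor of the stalk, rose under all 4 scalings, from 139 and 164 at E18 to 452 and 398 in adult (1.49 ± 0.11).

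Atp5k, subunit e, was the member of complex V with the largest drop from P14 to P28, at 3.46 and 4.0 at E18, then 9.15 and 8.68 at P14, then 3.98 and 4.98 at P28 and finally 6.06 and 4.85 in adult (-0.99 ± 0.21 from P14 to P28, adjusted p = 0.0042). Atp5sl, which is no subunit of the enzyme (its product is known as an assembly factor of complex I), was called higher at each of the 3 steps with TMM. The call from P28 to adult (0.29 ± 0.10, edgeR adjusted p = 0.076) did not hold under all 4 scalings or, as given above, with some samples left out. Atp5sl had the largest log2 fold change among the rows named for complex V, 2.37 ± 0.10 from E18 to adult. It was at 4.35 and 3.99 at E18, then 12.3 and 11.8 at P14, then 17.3 and 17.9 at P28 and finally 22.9 and 20.2 in adult.

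The shares of the 5 complexes in the chain's summed RPKM do not depend on the scaling between libraries, and from E18 to adult they were lower for complexes IV and V and higher for complexes I, II and III. Complex IV took 18.68% ± 0.20 (SD, n = 2) of the summed RPKM of all members at E18, 15.68% ± 0.53 by P14, then 15.01% ± 0.19 at P28 and finally 14.7% ± 0.35 in adult. Complex V took 33.89% ± 0.57 at E18 and 30.38% ± 0.31 in adult. Complex III took 9.59% ± 0.14 at E18, 11.72% ± 0.11 by P14, then 12.64% ± 0.35 at P28 and finally 12.74% ± 0.01 in adult, and complex II took 7.01% ± 0.02 at E18 and 8.77% ± 0.34 in adult. Complex I took 30.82% ± 0.53 at E18 and 33.41% ± 0.28 in adult. The differences were not tested. With the median member of each complex in place of the sum, complexes I and III turned to a lower share in adult by -1.82 and -4.69 percentage points. Without the tissue isoforms and the rows of another known role, the share of complex IV was 17.51% ± 0.37 at E18 and 14.66% ± 0.35 in adult. A share of summed RPKM is set mostly by the abundant genes.

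**Figure D4:**
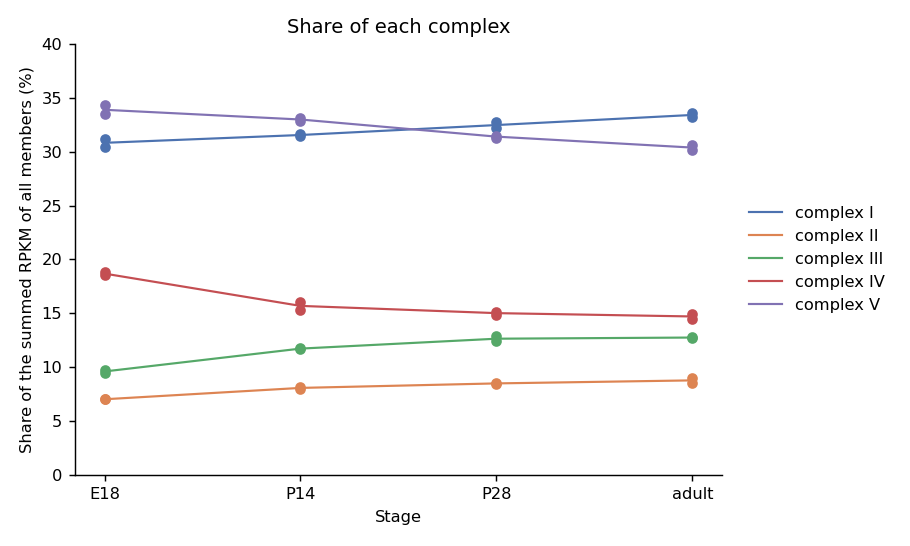
Share of each complex in the summed RPKM of all 85 members (percent) by stage, with points for libraries and lines through the stage means. Complexes II and III lie lowest at E18 (7.01% and 9.59%), complex IV lies highest at E18 (18.68%) and complex V falls from 33.89% to 30.38%.

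Of the 6 tissue isoforms that passed the filter on low counts, 3 were lower from E18 to adult (Cox6b2, Cox4i2 and Ndufa4l2), against 43.8% of all genes. Cox6b2 had the largest change of all members. Cox8b was counted as higher, but its call is not read as a result, since it passed the filter only through the later stages. Cox6b2 is an isoform of subunit VIb known from testis, and Cox6b1 is the form found in most tissues. Cox6b2 had 6696 and 5511 reads at E18, then 290 and 306 at P14, then 90 and 80 at P28 and finally 22 and 24 in adult. No stage overlapped another, and it was lower at every step under all 4 scalings, with a log2 fold change of -6.97 ± 0.14 from E18 to adult (adjusted p = 1.5e-09). At E18 it made up 34.3% and 29.4% of the summed RPKM of Cox6b2 and Cox6b1, at P14 1.52% and 1.62%, by P28 0.75% and 0.688%, and in adult 0.213% and 0.232%. The erythroid and neutrophil markers fell over the same interval, as given above, and their part in the fall of Cox6b2 was not tested.

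The ratio of 2 isoforms within a library does not depend on the scaling, and 8 pairs were compared over the 4 stages with an exact permutation test (two-sided, 105 groupings of the 8 samples, smallest possible p = 0.0095). The Cox6b2 to Cox6b1 log2 ratio was -1.10 ± 0.23 (SD, n = 2) at E18 and -8.81 ± 0.09 in adult (exact permutation p = 0.0095, adjusted p = 0.038 over the 8 pairs). Cox4i2, the isoform known from lung, fell against Cox4i1 from a log2 ratio of -8.99 ± 0.10 to -11.06 ± 0.02 (exact permutation p = 0.0095, adjusted p = 0.038), on 80 and 75 reads at E18 and 15 and 15 in adult. It was below 0.21% of the pair in every library. Cox8b, the heart and muscle isoform of subunit VIII, passed the filter on low counts only through the stages after E18, so its values are given without a test. The adjustment over the 8 pairs did include its ratio to Cox8a. Without that pair the adjusted p-values of the Ndufa4l2, Cox7a1 and Atp5g2 pairs given below would be higher. It had 1 and 2 reads at E18, then 26 and 39 at P14, then 26 and 37 at P28 and finally 43 and 39 in adult. Its level in adult was 57.3 times that at E18, a ratio that rests on those 1 and 2 reads. Against Cox8a its log2 ratio went from -10.55 ± 0.63 to -5.38 ± 0.02, and it still made up at most 2.37% of the pair. The striated muscle markers summed to between 5.51 and 6.13 at E18 and to at most 0.908 in adult. Brown fat also uses Cox8b, and of its 6 markers Ucp1, Plin1 and Cidea had at most 8 reads in any library, Dio2 had 83 and 51 reads at E18 and 0 and 2 in adult, Adipoq had 9 and 5 at E18, 22 and 19 at P14 and 13 and 18 in adult, and Elovl3, which liver can express too, had 7 and 7 at E18, 137 and 131 at P14 and 8528 and 14327 in adult. The part of muscle or fat cells in the level of Cox8b was not tested.

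Cox7a1, the heart and muscle form of subunit VIIa, had 157 and 198 reads at E18 and 69 and 51 in adult, and its log2 ratio to Cox7a2 went from -4.20 ± 0.15 to -5.71 ± 0.33 (exact permutation p = 0.048, adjusted p = 0.064). At P14 it took 2.25% of the pair in the first library and 4.10% in the one with more muscle marker reads, and their part was not tested. Cox6a2 had between 1 and 42 reads, and its ratio to Cox6a1 did not pass (exact permutation p = 0.35, adjusted p = 0.35). Ndufa4l2, known as a gene induced by low oxygen, had 1188 and 602 reads at E18, then 272 and 323 at P14, then 258 and 266 at P28 and finally 150 and 171 in adult, with a log2 fold change of -1.39 ± 0.25 from E18 to adult (adjusted p = 0.00078). The E18 samples lay above all others and far from each other, and without the sample of 1188 reads the log2 fold change was -0.93 (adjusted p = 0.0026). Its log2 ratio to Ndufa4 went from 0.00 ± 0.70 to -3.11 ± 0.08 (exact permutation p = 0.019, adjusted p = 0.038), and the level of Ndufa4 is uncertain because its transcript has a copy elsewhere.

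Subunit c of ATP synthase, which forms the rotor ring, is encoded by Atp5g1, Atp5g2 and Atp5g3, whose mature proteins are the same. Atp5g3 was the most abundant of all 85 members, at 417 and 495 TMM-scaled RPKM at E18, then 1151 and 1137 at P14, then 866 and 964 at P28 and finally 1000 and 929 in adult. Atp5g1 was at 10.6 and 12.2 at E18, then 39.2 and 37.3 at P14, then 36.5 and 34.7 at P28 and finally 35.7 and 23.1 in adult, and Atp5g2 was at 1.89 to 3.14 throughout. Both have pseudogenes of up to 99.8% and 100% identity, so their small shares are uncertain. The log2 ratio of Atp5g1 to Atp5g3 was -5.32 ± 0.03 at E18 and -5.07 ± 0.37 in adult (exact permutation p = 0.18, adjusted p = 0.21). That of Atp5g2 to Atp5g3 went from -7.84 ± 0.08 to -8.97 ± 0.02 (exact permutation p = 0.029, adjusted p = 0.046). The adjusted p of Atp5g2 rests in part on the Cox8b pair, which is not read as a result.

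**Figure D5:**
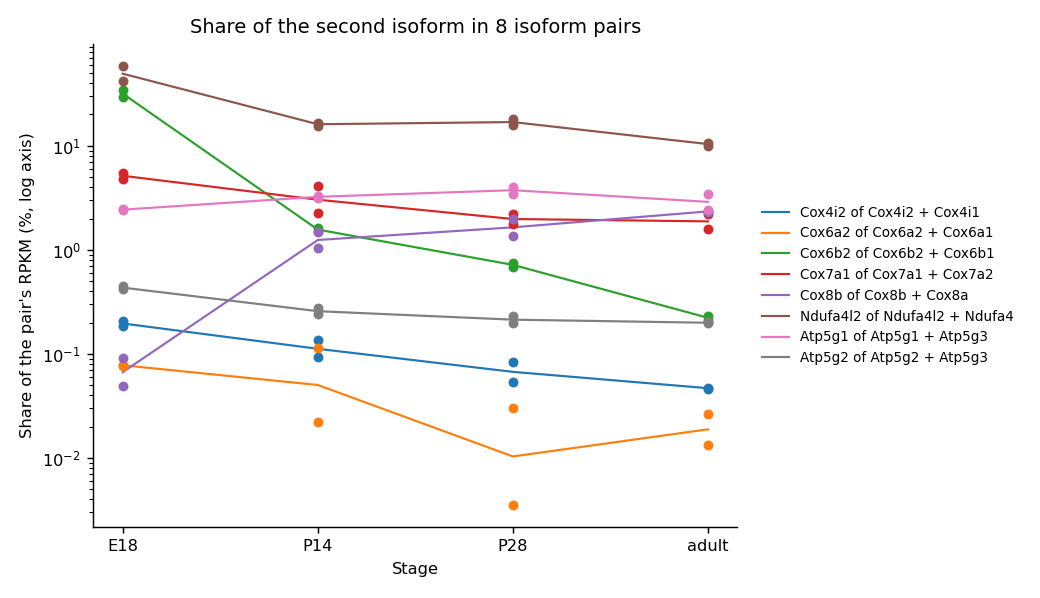
Share of the second isoform in the summed RPKM of its pair (percent, log axis) by stage, for 8 pairs, with points for libraries and lines through the geometric means. Cox6b2 falls from 34.3% and 29.4% at E18 to 0.213% and 0.232% in adult, and Cox8b rises from below 0.1% to 2.37% and 2.32%. Ndufa4l2 falls from 58.56% and 41.56% at E18 to 10.73% and 10.05% in adult. From E18 to adult the log2 ratios of the other pairs change less than those of Cox6b2 and Cox8b.

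The promoters of chain genes are known for binding sites of the factors NRF1, GABP (an ETS factor), YY1 and the estrogen-related receptors. Of the 85 members, 66 had a promoter in the RefSeq table (GRCm38.p6), which gives 250 bases before and 50 after the start of each gene, and exact letters were searched on both strands. The NRF1 core GCATGCGC stood in 10 of the 66 (15.2%) and in 4.7% of the 11758 tested genes with a promoter. The ETS letters CCGGAAG stood in 15 (22.7%, against 14.8%), the YY1 letters AAGATGGC in 8 (12.1%, against 3.9%) and AAGGTCA, known from sites of the estrogen-related receptors, in 8 (12.1%, against 3.5%). GGGCGG, the GC box, was rarer in members (39.4%) than in all (58.5%), and CCAAT (43.9% against 38.2%) and TATAAA (10.6% against 8.6%) were close. None of these motifs holds the letters of another, and a match is not a bound site. The mitochondrial ribosomal protein genes, 67 of which had a promoter, held the NRF1 core in 11.9% and the ETS letters in 34.3%. They held the YY1 letters in 17.9% and AAGGTCA in 6%. Each of these shares also lay above that of all genes tested, so such an excess was not particular to the chain genes.

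The upstream bases of Sdhb, which rose most in complex II, and of Cox6b2, which fell most, are printed because the first holds the NRF1 core and the second does not. That of Sdhb is chr4:140961109-140961270 on the plus strand, with its 3 GC boxes, the NRF1 core, which begins 54 bases before the start, and a CCAAT box in capitals (on either strand), and its searched window also holds the ETS letters after the start. That of Cox6b2 is chr7:4753095-4753310 on the minus strand, with its GC box and 2 CCAAT boxes in capitals, and it held none of the NRF1, ETS, YY1 or receptor letters. Both are from RefSeq, GRCm38.p6, and read 5′ to 3′ towards the start.
Sdhb: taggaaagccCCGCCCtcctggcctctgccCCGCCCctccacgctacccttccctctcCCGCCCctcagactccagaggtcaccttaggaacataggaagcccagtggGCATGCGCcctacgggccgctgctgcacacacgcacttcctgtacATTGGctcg
Cox6b2: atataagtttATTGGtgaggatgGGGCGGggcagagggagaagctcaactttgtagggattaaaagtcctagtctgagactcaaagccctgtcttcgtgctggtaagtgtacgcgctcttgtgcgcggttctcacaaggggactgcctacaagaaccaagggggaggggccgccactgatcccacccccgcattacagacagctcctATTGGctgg
The E18 libraries were the lowest for Sdhb and the highest for Cox6b2. The NRF1 core stood in 10 of the 66 member promoters, so most of them lack it, as Cox6b2 does. Among the other members with a promoter that passed 3-fold from E18 to adult, Ndufa6 holds it. Ndufa1, Ndufa4, Ndufs6 and Sdha passed 3-fold without it. Cox8b, whose call is not read as a result, lacks it too. No link between these letters and the levels was tested.

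Other genes act with the chain but lie outside the rule, and their counts stand against the shares of all genes from E18 to adult (39.5% higher and 43.8% lower with TMM, 22.1% and 64.9% with library size alone). Of 14 tested carriers and partners of the chain, 7 were higher from E18 to adult and 3 were lower (Atpif1, Slc25a4 and Ucp2), and with library size alone 6 were higher and 6 lower. Cyc1, the cytochrome c1 subunit of complex III, was higher by 1.27 ± 0.11 on the log2 scale, and Etfdh, which feeds electrons from fatty acid oxidation to ubiquinone, by 2.71 ± 0.12, both also with library size alone. Atpif1, the inhibitor of ATP synthase and also known for a role in heme synthesis of erythroblasts, was at 195 and 273 TMM-scaled RPKM at E18, then 31.5 and 35.6 at P14, and 14.9 and 15.1 in adult (-3.96 ± 0.17, adjusted p = 4e-08). Slc25a4, the heart and muscle form of the ADP and ATP carrier, was at 99.6 and 107 at E18, then 101 and 105 at P14, then 11.5 and 12.9 at P28 and finally 6.69 and 6.36 in adult (-3.98 ± 0.10). It fell by 3.08 on the log2 scale from P14 to P28 and by 0.90 from P28 to adult (adjusted p = 0.00058), and from E18 to P14 its log2 fold change was -0.01 and not called with TMM but -0.87 and called lower with library size alone. Ucp2, an uncoupling protein also found in blood cells, had the lowest log2 fold change of these genes (-5.18 ± 0.16). The erythroid and neutrophil marker sums given above fell in the same interval as Atpif1 and Ucp2, and their part was not tested. The somatic cytochrome c gene Cycs rose by 1.94 ± 0.19 from low levels (0.276 and 0.315 at E18), while its testis form Cyct had 26 and 7 reads at E18 and 0 and 1 in adult. Slc25a5, a second ADP and ATP carrier, was at 0.745 and 0.904 at E18 and 1.22 and 0.888 in adult and was not called (0.35 ± 0.22), with the opposite sign and a call with library size alone (-0.50). Copies elsewhere were sought only for the 85 members. Whether copies lower the counts of Cycs and Slc25a5 was not tested, so their levels beside other genes, such as Slc25a4, are uncertain.

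Of the 30 assembly factors 25 were higher from E18 to adult and 1 was lower, with a median of 1.01, and with library size alone 14 were higher and 6 lower. Sco2, which delivers copper to complex IV, had the largest log2 fold change (2.82 ± 0.12), and the copper chaperone Cox17 the lowest (-0.65 ± 0.15), both with the same sign and a call with library size alone. Of 13 genes of the tricarboxylic acid cycle 10 were higher and 2 lower (median 0.59), and with library size alone 5 were higher and 7 lower. Suclg2, a subunit of succinate-CoA ligase, was highest at 2.43 ± 0.12, whereas Cs, citrate synthase, was lower (-0.48 ± 0.09, at 38.3 and 41.8 at E18 and 27.2 and 30.2 in adult). Of 76 mitochondrial ribosomal protein genes 51 were higher and 5 lower (median 0.35) with TMM, and 6 were higher and 50 lower (median -0.50) with library size alone, where 64.9% of all genes were lower.

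The 20 regulators of mitochondrial biogenesis had 11 higher and 4 lower genes from E18 to adult (median 0.41, against 39.5% and 43.8% of all genes), and with library size alone 5 were higher and 12 lower, shares near those of all genes (22.1% and 64.9%). Sirt3, the main deacetylase of mitochondria, had the largest log2 fold change (3.34 ± 0.10) and Nrf1 the lowest (-1.99 ± 0.14, from 9.05 and 10.9 at E18 to 2.19 and 2.82 in adult). Ppargc1a, the coactivator of mitochondrial genes, was at 1.3 and 0.965 at E18, then 4.39 and 2.85 at P14, then 2.42 and 2.07 at P28 and finally 1.64 and 1.39 in adult, and was higher at P14 than at E18 (1.68 ± 0.22, adjusted p = 0.00012) and lower again at P28 (-0.69 ± 0.22, adjusted p = 0.030). Esrra, the receptor it acts with, rose to P14 (1.55 ± 0.13) and stood at 28.7 and 22.1 in adult. Gabpa and Tfam, which activates transcription of mitochondrial DNA, changed by 0.41 ± 0.09 and 0.34 ± 0.08 from E18 to adult with TMM and by -0.44 and -0.51 with library size alone, so their direction depended on the scaling.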

How the data were processed

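Poly(A) RNA of whole liver was sequenced by the authors at 4 stages with 2 samples each. Per the labels the reads were processed on the mm9 build, and the aligner is not given in the sources used here. The authors deposited, for each gene symbol, raw read counts and RPKM, which scale a count by transcript length and by the mapped reads of the library. For RNA isolation, Trizol stands in the labels and another kit in the study's methods. Groups and replicate numbers were taken from the titles. The members and lists were chosen with earlier results of these data known.

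Counts were fitted with edgeR (version 4.0.16, R 4.3.3): filterByExpr left 17081 of 22059 genes, TMM scaled the libraries, and glmQLFit with 1 coefficient per stage on all 8 samples was followed by glmQLFTest, with Benjamini-Hochberg adjustment over all genes tested and calls at an adjusted p below 0.1. The standard error is the log2 fold change divided by the square root of F. Levels are the counts per kilobase and 1e6 reads of the TMM-scaled library size. On simulated data the fit was tested before use. Copies were sought with blastn (version 2.17.0) between transcripts of GENCODE M21 (GRCm38), taking for each member the coding transcript nearest in length to the deposited one. Ratios of isoforms used deposited RPKM and scipy 1.17.1. DESeq2 (version 1.42.0) was an alternative.

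Replicate numbers did not pair the samples: over 8726 genes the deviations of same-numbered samples had a mean correlation of -0.09 (range -0.41 to 0.16 over 6 stage pairs). Named genes were, in each complex and comparison, the tested members with the highest and lowest change, all members past 3-fold, the catalytic subunits, all isoforms, and the most abundant member of each complex, and of the other lists the highest and lowest from E18 to adult with set genes such as Cs and Tfam. Other members are named as examples chosen after their values were seen. A result that the rule would also name is not reported here. Depth (68154675 to 106055723 reads on genes) limits mainly members with under 100 reads. Alternatives were 3 other scalings, 2 filters, DESeq2, 2 stages only, a replicate block, a false discovery rate of 0.05, narrower member lists and each sample left out; the list without copied members was chosen after seeing the data.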

Additional observations from a re-analysis of the deposited data

How the results depend on the processing

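The counts from E18 were the same within 1.5 times under all alternatives except these. With library size alone 33 members were higher and 15 lower from E18 to P14 (median 0.13), and 34 higher and 14 lower from E18 to adult (median 0.145). With upper-quartile scaling 8 were lower from E18 to adult and the median was 0.74, and with at least 10 counts in every sample the median was 0.86. Without the tissue isoforms 0 members were lower from E18 to P14 or to adult, and 0 from P28 to adult. Without the rows of another known role 1 was lower from E18 to P14, 1 higher from P14 to P28 and 1 higher from P28 to adult. Without the members with a copy elsewhere 43 were higher from E18 to P14 and 42 to adult, 11 lower from P14 to P28 and 1 higher from P28 to adult, of 48 tested. Leaving out each sample gave 71 to 73 higher and 2 to 2 lower from E18 to P14 (medians 0.88 to 1.14), 67 to 71 higher and 3 to 4 lower from E18 to adult (0.87 to 1.11), 1 to 5 higher and 6 to 21 lower from P14 to P28 (medians -0.13 to -0.07), and 0 to 7 higher and 1 to 2 lower from P28 to adult (medians 0.02 to 0.19). The 18 lower members from P14 to P28 became 9 and 7 without either P14 sample and 6 without the first P28 sample.

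From P14 to P28, 4 members were higher with median-ratio scaling, 1 with upper-quartile scaling, 1 without a filter, 1 where each sample had 10 counts or more, 6 with only the 2 stages, 5 with DESeq2 and 1 at an adjusted p below 0.05. There 28 were lower with upper-quartile scaling, 11 with DESeq2 and 8 at the stricter threshold. From P28 to adult, 5 were higher with library size alone, 1 with upper-quartile scaling, 1 with no filter, 6 with only the 2 stages and 0 at the stricter threshold. With the replicate block 73 were higher from E18 to P14 and 70 to adult, and 1 was higher and 13 lower from P14 to P28, and no other count moved by over 1.5 times.

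The ratio of Atp5g1 to Atp5g3, adult minus E18, was 0.26 on the log2 scale and -0.003 to 0.52 when a sample was left out, the lowest without the first adult sample. That of Cox6b2 to Cox6b1 was -7.87 to -7.54, of Cox8b to Cox8a 4.72 to 5.61 and of Ndufa4l2 to Ndufa4 -3.61 to -2.62. The change in share of complexes I, II, III, IV and V from E18 to adult was 2.59, 1.76, 3.15, -3.98 and -3.51 percentage points, but with the median member of each complex in place of the sum it was -1.82, 8.70, -4.69, -0.93 and -1.26. Without tissue isoforms and rows of another role complexes I, IV and V gave 2.21, -2.85 and -4.05.

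For 46 named genes, relative to the median of all genes, 1399 of 1468 alternatives kept direction and call, 45 lost the call, 14 gained it and 10 turned the direction. The other scalings among these alternatives could hardly turn a direction on this relative scale, since each shifts all genes nearly alike. With at least 10 counts in every sample Cox4i2 turned to -0.09 from E18 to P14 and Atp5g2 to -0.13 from E18 to adult. Leaving out a sample gave -0.23 to 0.31 for Cox4i2, -0.77 to 1.61 for Cox6a2 and -0.49 to 0.33 for Cox7a1 from E18 to P14, and -0.013 to 0.175 for Atp5g2 and -0.33 to 0.23 for Atp5h from E18 to adult. Depth limits Cox6a2, Cox8b, Cox4i2 and the members with copies. The cause of these changes was not tested.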
